A study of Rattus norvegicus with 176 samples.

Results

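Liver RNA of rats given DEN was compared with that of control rats at the times labelled 5j, 1m, 3m, 9m and 12m, with all 5 times entering 1 model. DEN is the field's abbreviation for diethylnitrosamine, a liver carcinogen, and the labels do not spell it out. The members are the 50 arrays whose source label is DEN or Ctrl at one of these times, of 176 arrays in the series. They come from 25 DEN rats and 25 control rats, 5 of each at every time, with 1 liver section per rat and a rat number of its own on each. Rats labelled rev were left out of the pooled model. The comparison asks for changes small enough to be missed with 5 rats a group that nevertheless last over the times.

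All rats were F344, an inbred strain widely used in carcinogenesis work, and total RNA of liver sections was hybridized to Affymetrix arrays of 15922 probe sets. Control rats (Ctrl) and DEN rats (DEN) were set side by side at each time, where j and m follow a number and the labels define neither. Other groups served only for comparison: 5 DEN and 5 control rats (CtrlDEN) at a time written -8 with no unit, 6 DEN and 4 control rats tagged rev at 12 (written 12rev and 12mrev), and 25 DEN-Clo against 25 Clo rats at the same 5 times. Clo and DEN-Clo rats belong to the series' study of clofibric acid (CA), a fibrate drug. The titles name 5000 ppm CA for every array, controls included, so groups were taken from the source label alone. The labels give no dose, route or schedule of DEN, no sex and no age, and do not say what rev means. In the pooled comparison 9 DEN and 9 control arrays carry a B suffix that the labels leave unexplained.

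DEN is converted inside hepatocytes, mainly by the cytochrome Cyp2e1, into a reactive species that ethylates DNA. The liver answers such damage through the transcription factor p53, whose targets include the cell cycle inhibitor Cdkn1a, cyclin G1 (Ccng1) and the p53 antagonist Mdm2, and through repair enzymes such as Mgmt, which removes alkyl groups from guanine. Altered foci that appear long after DEN in rat liver are classically recognized by Gstp1 and Ggt1. A section of whole liver averages over all its cells, so a change in few cells is diluted.

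Levels below are intensities after each array was scaled to a median of 99.35, given as scaled signals. Differences are log2(scaled signal + 25), DEN less control, ± their standard error, and the added 25 shrinks the changes of dim probe sets. A probe set was called when its p from limma, adjusted after Benjamini and Hochberg over all probe sets of the fit, was below 0.05. "Fell" and "rose" are used for called probe sets only. Unscaled array medians ran from 35.6 to 130, the lowest correlation between 2 rats of a group was 0.928, and no 2 arrays were identical. The hepatocyte markers Alb, Ttr and Apoa1 and the Kupffer cell markers Clec4f and Cd68 were above the 40th percentile of their array on 50 of 50 arrays. The bile duct marker Krt19, the neutrophil marker S100a8 and the acinar marker Cpa1 exceeded it on 0 of 50.

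Over all 5 times, DEN left a single called difference in 11601 probe sets of 8300 genes. A probe set for Cct6a (1377006_at), a subunit of the TRiC chaperonin that folds actin and tubulin, fell by 0.92 ± 0.16 (1.89-fold, 95% interval -1.24 to -0.59, adjusted p = 0.0082 in limma). The share called was 0.00862%. At an unadjusted p below 0.05 there were 411 probe sets (3.54%), 187 higher and 224 lower under DEN, and the median difference over all probe sets was -0.012. The distribution of pooled differences was narrow, with a median absolute value of 0.049 and a 99th percentile of 0.256, and only 4 probe sets differed by 0.5 or more.

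**Figure D1:**
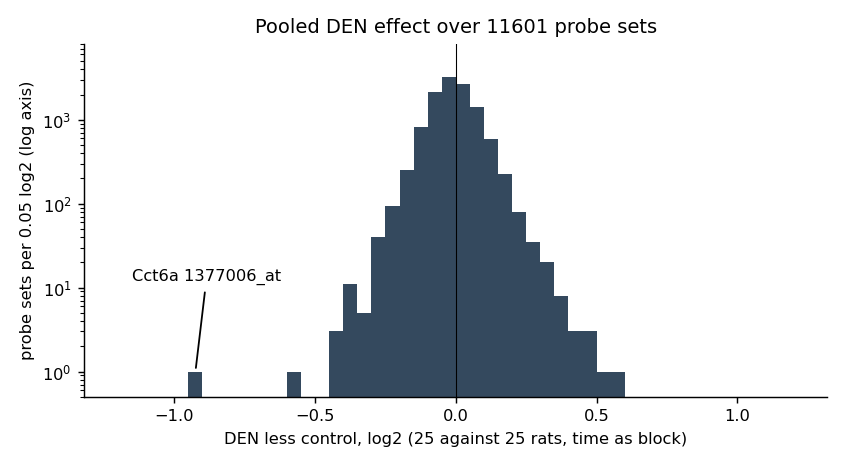
Number of probe sets (log axis) by pooled difference between 25 DEN and 25 control rats (log2, in steps of 0.05), from the model with time as a block. Nearly all of the 11601 probe sets lie within 0.5 of 0, and the Cct6a probe set 1377006_at stands alone at -0.92.

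The interval around each pooled difference bounds the mean difference over the 5 times for that probe set, and not the difference at a single time. It is not adjusted for the number of probe sets, so a difference whose interval excludes 0 need not be called. The median distance from the estimate to either end of the 95% interval was 0.150, a 1.11-fold change, against 0.336 for a single time with 5 rats a group. For 11405 probe sets (98.3%) the interval lay wholly within 0.5 of 0, which is a 1.41-fold change, and for 11598 (99.97%) it lay within 1, a 2-fold change. The 3 that did not were Cct6a 1377006_at, Cyp2c12 and Cish. Cyp2c12, a P450 of growth-hormone-controlled, sex-dependent expression, had a pooled difference of 0.48 with an interval from -0.08 to 1.03. Cish, a feedback inhibitor of cytokine signalling, had 0.41 with an interval from -0.18 to 1.00. Both genes spread widely among rats of both arms: control signals of Cyp2c12 ran from 74.9 to 7420 and DEN signals from 73.1 to 2750.

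The Cct6a signal was not lowered evenly over the times. At 5j the DEN rats had scaled signals of 8.43, 51.4, 77.4, 108 and 159 and the controls 201, 219, 245, 279 and 292. At 3m the DEN rats had 32.5, 35.3, 59.1, 60.6 and 97.2 and the controls 111, 204, 213, 223 and 421. At these 2 times every DEN rat lay below every control. At 1m the arms overlapped, with 37.7, 72.6, 122, 171 and 246 under DEN and 177, 232, 278, 286 and 308 in controls.

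At the late times the arms lay over each other. At 9m the DEN rats had 116, 142, 145, 317 and 372 and the controls 201, 201, 225, 266 and 286. At 12m the DEN rats had 115, 160, 182, 191 and 209 and the controls 148, 164, 192, 204 and 269. The differences were -1.56 ± 0.32 at 5j (adjusted p = 0.03353 in limma), -1.02 at 1m, -1.62 at 3m (adjusted p = 0.06371), -0.22 at 9m and -0.16 at 12m. The mean of 9m and 12m less that of 5j and 1m was 1.098 ± 0.318, with an unadjusted p of 0.001187 and an adjusted p of 0.5191 in limma. In all, 22 of 25 DEN rats were below the control mean of their time.

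**Figure D2:**
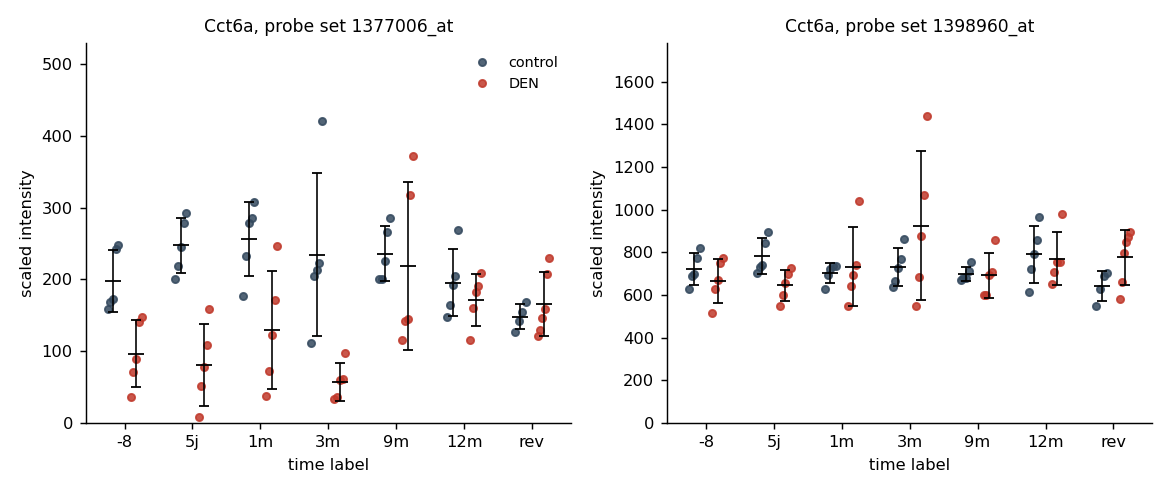
Scaled signal of both Cct6a probe sets in each control and DEN rat at -8, at the 5 pooled times and in rev rats, with group means and SD as bars. DEN rats lie below all controls at -8, 5j and 3m for 1377006_at, while for the brighter 1398960_at the arms overlap throughout.

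The call rested on the early times and on weighting arrays alike. Without 5j the pooled difference was -0.75 (adjusted p = 0.603 in limma), without 1m -0.89 (0.0735) and without 3m -0.74 (1), and with array weights it was -0.67 (0.279). Leaving out any single rat kept it called. Within the 18 arrays with the B suffix the difference was -0.86 and within the other 32 it was -0.93, with adjusted p of 0.797 and 0.571.

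Other probe sets of the same complex did not share the difference. The second Cct6a probe set, 1398960_at, was brighter and averaged 753 ± 202 (SD, n = 25) under DEN and 741 ± 87.1 (n = 25) in controls, a difference of -0.01 ± 0.07 with an interval from -0.15 to 0.14. TRiC is built of related subunits, and those of Tcp1, Cct2, Cct3, Cct4, Cct5, Cct7 and Cct8 had pooled differences between -0.07 (Cct4) and 0.08 (Cct8), none called. The disagreement between the 2 Cct6a probe sets means that the level of the Cct6a transcript as a whole cannot be read from the called one.

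Rats outside the pooled model gave mixed values for Cct6a 1377006_at. At -8 the DEN rats had 35.3, 71.4, 88.8, 140 and 147, all below the controls at 158, 168, 173, 242 and 248, a difference of -0.95 ± 0.30 with an adjusted p of 0.1596 in limma. In rev rats the difference was 0.11 ± 0.31. In DEN-Clo against Clo rats the pooled difference was 0.14 ± 0.11 (adjusted p = 0.7324 in limma). Whether the Clo arms differ from the others in this effect was not tested.

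The genes next in order of p were not called, and all had an adjusted p of 0.9998 in limma. They were chosen by their p, so their values describe the upper end of the list only. Hsd17b2, an enzyme that inactivates oestradiol and testosterone, was nearest, at 0.53 ± 0.14 (interval 0.25 to 0.82), with 851 ± 517 under DEN and 546 ± 283 in controls (SD, n = 25 each) and 20 of 25 DEN rats above the control mean of their time. At 9m its DEN signals of 601, 609, 785, 800 and 1340 all exceeded the control signals of 317, 319, 416, 495 and 521. At 12m they were 1010, 1320, 1570, 1730 and 2310 against 396, 820, 827, 855 and 1340, where 2 DEN rats lay below the highest control.

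By time, Hsd17b2 differed by 0.18 at 5j, 0.17 at 1m, 0.46 at 3m, 0.92 at 9m and 0.93 at 12m. Its late less early difference was 0.75 ± 0.31 and was not called (adjusted p = 0.5693 in limma). In other rats its difference was 0.18 in rev and, under CA, -0.13 at 5j, 0.01 at 1m, -0.10 at 3m, 0.86 at 9m and 0.46 at 12m, pooled 0.22 ± 0.09. Under CA Hsd17b2 was called at 9m (adjusted p = 0.04156 in limma). Its late less early difference there, 0.719 ± 0.175, was not called (adjusted p = 0.109 in limma). At 9m 4 of 5 DEN-Clo and 1 of 5 Clo arrays carry the B suffix, so DEN and the suffix cannot be fully told apart. With all untagged sections of the series in 1 fit, Hsd17b2 was called (adjusted p = 0.0254 in limma). Its pooled difference of 0.53 there comes from the same DEN and control rats and is not a second estimate. The added sections can alter the spread and the p but not this difference.

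Scarb1, the hepatic HDL receptor, stood at 0.26 ± 0.08 and was higher at all 5 times. Acot12, a cytosolic acetyl-CoA thioesterase, stood at 0.24 ± 0.08. Among those lower were Cd14 (-0.37 ± 0.11), Fam76a (-0.29 ± 0.08), the thyroid hormone receptor Thra (-0.27 ± 0.09), the mitochondrial unfoldase Clpx (-0.24 ± 0.07), Dpyd, the first enzyme of pyrimidine breakdown (-0.23 ± 0.08), and the RNA-binding protein Khsrp (-0.23 ± 0.07). The other 3 of these 12, Mink1, Mettl16 and Strbp, lay between -0.22 and -0.175.

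**Figure D3:**
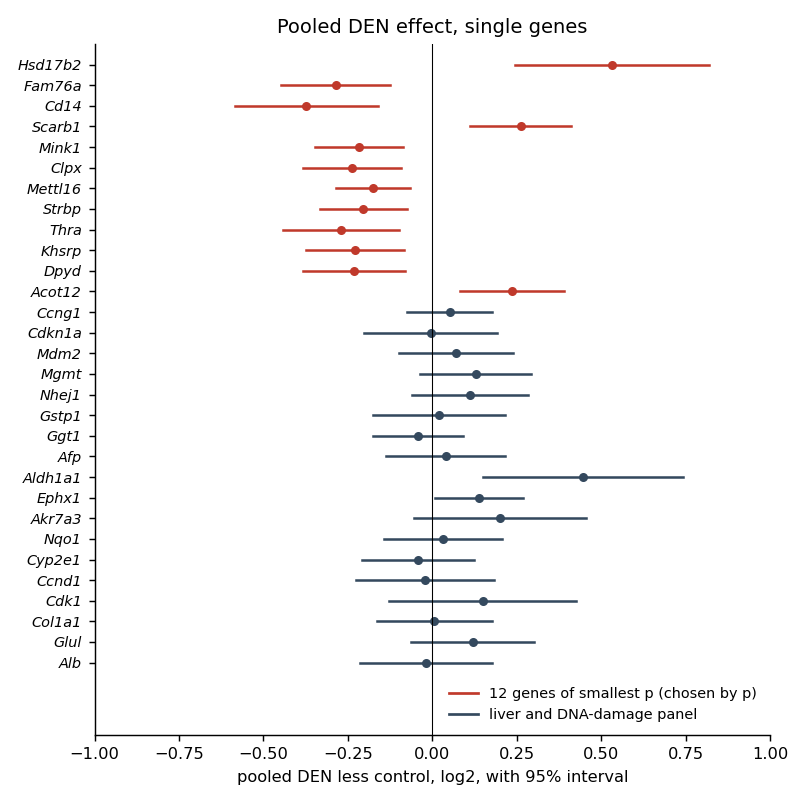
Pooled difference (points, log2) and 95% interval (lines) for the 12 genes of smallest p, chosen by p, and for the panel of DNA damage, focus and liver genes. The panel genes lie within 0.25 of 0 except Aldh1a1 at 0.45.

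A panel of genes known from DNA damage and from altered liver foci was not called over the pooled times. Gstp1, the classic marker of rat liver foci, averaged 319 ± 107 under DEN and 305 ± 77.9 in controls (SD, n = 25 each), a difference of 0.02 ± 0.10 with an interval from -0.18 to 0.22. Ggt1, another focus marker, was at -0.04 ± 0.07 and the fetal liver protein Afp at 0.04 ± 0.09. These intervals lie within a 1.41-fold change, for RNA averaged over a section.

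Genes of the damage response were as close. Ccng1 was at 0.05 ± 0.06, Mdm2 at 0.07 ± 0.09, the Cdkn1a probe set 1388674_at at 0.00 ± 0.10, Mgmt at 0.13 ± 0.08 and Nhej1, a factor of DNA end joining, at 0.11 ± 0.09. Among enzymes, Cyp2e1 was at -0.04 ± 0.08, the quinone reductase Nqo1 at 0.03 ± 0.09, the epoxide hydrolase Ephx1 at 0.14 ± 0.07 and the aflatoxin aldehyde reductase Akr7a3 at 0.20 ± 0.13. Proliferation and matrix genes gave -0.02 for Ccnd1, 0.15 for Cdk1 and 0.01 for Col1a1. Glul, a pericentral enzyme, was at 0.12 and Alb at -0.02.

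Aldh1a1, a retinaldehyde dehydrogenase, had the largest difference of the panel, 0.45 ± 0.15 (interval 0.15 to 0.74, unadjusted p = 0.00381, adjusted p = 0.9998 in limma). It was higher in 21 of 25 DEN rats than the control mean of their time. At 5j its DEN signals were 567, 722, 793, 1060 and 1350 against 150, 329, 430, 563 and 1060, and at 12m they were 2530, 2810, 2870, 2960 and 3510 against 2530, 2630, 2660, 2840 and 2910. The control level of Aldh1a1 was thus several times higher at 12m than at 5j, and the arms there overlapped.

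In 33 gene lists on pathways and cell types, each gene was stood for by its probe set with the highest mean log2 value. Of all 8300 genes taken this way 0 were called in the pooled model, so no list could have a called member. Among 457 list genes tested, 15 (3.28%) had an unadjusted p below 0.05, beside 3.19% of all 8300 genes. For the 30 lists with at least 5 genes tested, the median pooled difference was lowest in cholesterol synthesis genes, at -0.098 (13 genes). It was highest, at 0.046, in cell cycle genes (20 genes) and alike in immediate early and stress genes (19 genes). The median over all genes was -0.012. In the p53 target list 6 of 12 genes were above 0, with a median of 0.023, and in DNA repair 13 of 27, with a median of -0.001.

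Focus and tumour markers had a median of 0.021 over 17 genes, oxidative stress genes -0.002 over 15 and drug-metabolising P450 genes -0.034 over 21. The members with the smallest p included Lig4, a ligase of DNA end joining (-0.41 ± 0.16), Dbp, a clock-controlled transcription factor (0.35 ± 0.12), Stat5b, which carries growth hormone signals (0.18 ± 0.07), and the replication helicase subunits Mcm7 (0.15 ± 0.06) and Mcm3 (0.19 ± 0.09). Lox, which cross-links collagen, was at -0.21 ± 0.08. None of these was called.

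Marker lists of other liver cells were also close to 0, at -0.038 for macrophage and Kupffer cell markers (11 genes), -0.011 for stellate cell and matrix genes (24), 0.004 for endothelial cell markers (10), 0.019 for T and NK cell markers (11) and 0.029 for bile duct cell markers (5). The summed signal of the 11 macrophage markers ran from 6060 to 13200 in DEN rats and from 7160 to 14300 in controls, and that of the 11 hepatocyte markers from 84600 to 197000 and from 87900 to 167000. The median SD within groups was 0.267 in DEN and 0.258 in control rats on the log2 scale, with a median ratio of 1.025, and 54.2% of probe sets had the larger SD in DEN rats. This difference in spread was not tested.

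Taken time by time, calls were found at 5j alone. There 4 probe sets were called (0.0345%), 1 higher and 3 lower, and 969 (8.35%) had an unadjusted p below 0.05. Of the 969, 251 were higher and 718 lower, and the median over all probe sets was -0.066. How far this common shift enters the count was not tested. None (0%) was called at 1m, 3m, 9m or 12m in limma, where 500 (4.31%), 695 (5.99%), 403 (3.47%) and 265 (2.28%) had an unadjusted p below 0.05. A test of whether the DEN effect differed among the 5 times called none (0%), with 553 probe sets (4.77%) at an unadjusted p below 0.05, so a difference in calls between times is not itself a tested difference.

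The strongest call at 5j was Cd14, the co-receptor for bacterial lipopolysaccharide made by macrophages and, under stimulation, by hepatocytes, which fell by 1.30 ± 0.19 (adjusted p = 2.31e-04 in limma). Its DEN signals were 263, 293, 469, 485 and 545 and its control signals 651, 744, 1210, 1270 and 1400, with no overlap. In whole liver, fewer cells of a type and less RNA per cell cannot be told apart. The median difference of the macrophage list at 5j was -0.268, beside -0.077 over all genes. Similar values were found for bile acid genes (-0.302), cytosolic ribosomal proteins (-0.252) and P450 genes (-0.243). These were the lowest of the list medians at 5j. Other lists lay above 0 there, such as lipogenesis genes (0.150), cell cycle genes (0.130) and focus and tumour markers (0.122).

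The Cd14 difference was smaller at the later times, -0.31 at 1m, -0.19 at 3m, -0.10 at 9m and 0.04 at 12m. In rats of the Clo arms at 5j, which share no animal with these, the DEN-Clo signals were 162, 168, 173, 293 and 338 against 290, 531, 592, 613 and 843 in Clo, a difference of -1.24 ± 0.27 (adjusted p = 0.09639 in limma). There 3 of 5 DEN-Clo rats lay below every Clo rat. The other calls at 5j were Cct6a 1377006_at, the membrane protein gene Tmem164 (-0.75 ± 0.15, adjusted p = 0.03353) and a probe set assigned to several genes (1.21 ± 0.22, adjusted p = 0.01099).

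The count at 5j was sensitive to single rats. It was 1 without control 4007 or 4009, and 2 without control 4006 or 4008 or DEN rats 4053, 4054 or 4057. Cd14 was called in all 50 fits that left out 1 rat, with adjusted p up to 0.00498 in limma, while without scaling it stood at -1.22 and was not called (adjusted p = 1).

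Opposite effects can cancel in a pooled model, and Cdkn1a was the named gene called for a difference between early and late times. Its product p21 holds cells before DNA replication. The mean DEN effect of 9m and 12m less that of 5j and 1m was called for 2 probe sets (0.0172%). At an unadjusted p below 0.05 there were 955 (8.23%), 670 higher and 285 lower, and the median over all probe sets was 0.053. Both called probe sets were lower, and after quantile normalization 1 was higher and 4 lower. One was Cdkn1a 1387391_at, at -1.27 ± 0.23 (adjusted p = 0.01123 in limma), and the other was the probe set assigned to several genes that was also called at 5j (-1.11 ± 0.22, adjusted p = 0.04644). The latter lost its call in at least 40 of the 50 fits that left out 1 rat, and Cdkn1a in none, while without scaling Cdkn1a was no longer called (-1.46, adjusted p = 0.282).

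At 5j the DEN rats had Cdkn1a signals of 362, 432, 517, 534 and 571 and the controls 163, 250, 264, 407 and 470. At 1m they had 175, 329, 345, 366 and 374 against 154, 177, 208, 236 and 259. The DEN rats were mostly the higher ones at both times, with some overlap.

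At 9m the DEN rats had 270, 276, 305, 437 and 459 against 415, 442, 592, 597 and 650. At 12m they had 180, 351, 371, 388 and 455 against 507, 514, 516, 654 and 708. The order was thus turned, and at 12m every DEN rat lay below every control. The differences were 0.66 ± 0.23 at 5j, 0.54 at 1m, 0.38 at 3m, -0.60 at 9m and -0.73 ± 0.23 at 12m, none called at its own time, and the pooled difference was 0.05 ± 0.13. The controls' own level was higher at the late times, with a highest signal of 470 at 5j and a lowest of 507 at 12m.

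**Figure D4:**
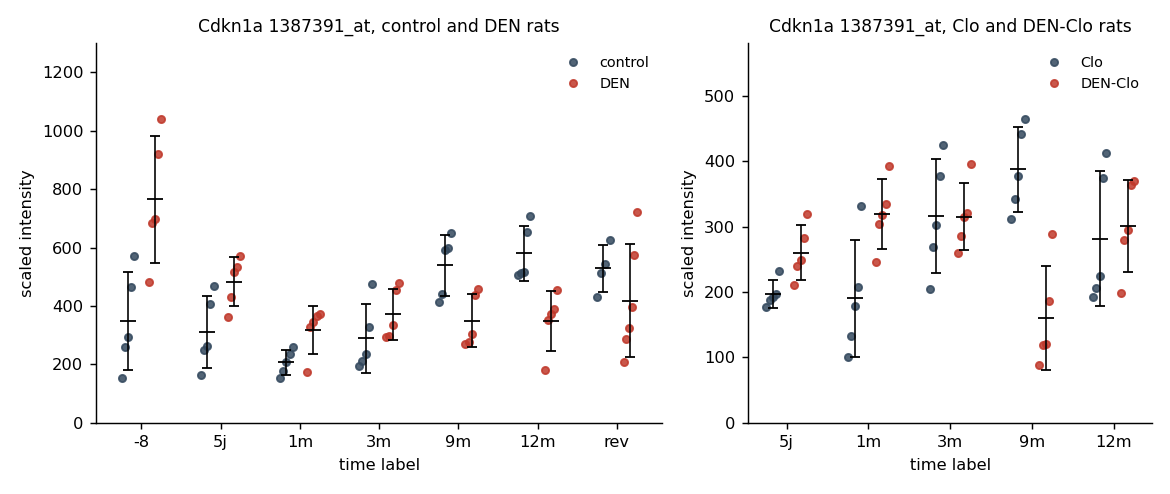
Scaled signal of Cdkn1a (1387391_at) in each rat by time, with group means and SD as bars. In the left panel DEN rats are above most controls up to 1m and below most or all at 9m and 12m, and in the right panel DEN-Clo rats are below all Clo rats at 9m only.

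The second Cdkn1a probe set, 1388674_at, lay on the same side but was not called, at -0.85 ± 0.19 (adjusted p = 0.1642 in limma). At -8 the DEN rats had 483, 683, 698, 919 and 1040 for 1387391_at against 152, 260, 294, 464 and 571, with an overlap of 1 rat on each side. In rev rats Cdkn1a 1387391_at was at -0.42 (adjusted p = 0.9997), with DEN signals between 207 and 720 and control signals between 431 and 627.

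The same contrast was then taken in DEN-Clo against Clo rats, chosen after the values above were seen, and there both Cdkn1a probe sets were called, at -1.11 ± 0.22 for 1387391_at and -1.16 ± 0.23 for 1388674_at (adjusted p = 0.02535 each in limma). The call of 1387391_at was lost there after quantile normalization (-0.99, adjusted p = 0.0563) and without scaling (-1.36, 0.195). Of all probe sets 6 were called there (0.0514%), 1 higher and 5 lower (3 and 3 after quantile normalization), with 1398 (12%) at an unadjusted p below 0.05. Of the 1398, 348 were higher and 1050 lower, and the median over all probe sets was -0.068. By time, 1387391_at differed by 0.36 at 5j, 0.76 at 1m, 0.02 at 3m, -1.24 at 9m and 0.12 at 12m, and was called at 9m only (adjusted p = 0.01033 in limma). At 9m the DEN-Clo rats had 88.3, 119, 120, 186 and 288 and the Clo rats 312, 342, 377, 441 and 465. So in these arms the late side rested on 9m, while in rats of the DEN and control arms it was seen at 9m and 12m. At 9m the DEN-Clo rats 4103, 4104 and 4105 also have sections tagged TU in the series, and no Clo rat does. The labels do not define the tag. At 12m rats of both arms have such sections. Whether this bears on the Cdkn1a values was not tested. At 1m, 3m and 9m alike, 4 of 5 DEN-Clo and 1 of 5 Clo arrays carry the B suffix. No B term was fitted in the Clo arms, so DEN and the suffix cannot be fully told apart there. Leaving out single rats kept 1387391_at called in 41 of 50 fits there and in 50 of 50 in the pooled arms, while the count of calls in the Clo arms went from 0 to 13.

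Clock genes were among the other calls in the Clo arms: Nr1d1, a repressor of the circadian clock, at 1.47 ± 0.31 and Per1, a clock gene, at -1.46 ± 0.30. In the DEN and control rats the same late less early values were 0.57 ± 0.29 for Nr1d1 (adjusted p = 0.6043 in limma) and -0.22 ± 0.41 for Per1 (0.9116). The labels give no hour of sampling, and the part of the clock genes in the Cdkn1a result was not tested.

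How the early response to DEN carried over was followed from the rats at -8. In them 41 of 11800 probe sets were called (0.347%), 16 higher and 25 lower, and 28 and 14 after quantile normalization, and 1535 (13%) had an unadjusted p below 0.05. Of the 1535, 321 were higher and 1214 lower, and the median over all probe sets was -0.069. Among the risers were Ccng1 (1.29 ± 0.15), Cdkn1a (1.16 ± 0.26 for 1387391_at), Mdm2 (0.95 ± 0.23), Mgmt (1.36 ± 0.19), Nhej1 (1.47 ± 0.17), Aldh1a1 (2.86 ± 0.33) and Ephx1 (0.99 ± 0.15). Among those that fell were the chloride cotransporter Slc12a2 (-0.79 ± 0.17), the catenin Ctnnd1 (-0.69 ± 0.15) and Dpyd (-0.63 ± 0.16).

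The promoters of Cdkn1a and Ccng1, known p53 targets that rose together, are shown with their match to the p53 half-site in capitals. A half-site is only a part of a p53 response element. The sequence is RefSeq, build GRCr8, running from 250 bases before to 50 bases after each start. That of Cdkn1a lies at chr20:7150682-7150981 on the + strand, with the match at bases 50 to 59, and that of Ccng1 at chr10:25684827-25685126 on the - strand, with the match at bases 19 to 28.
Cdkn1a: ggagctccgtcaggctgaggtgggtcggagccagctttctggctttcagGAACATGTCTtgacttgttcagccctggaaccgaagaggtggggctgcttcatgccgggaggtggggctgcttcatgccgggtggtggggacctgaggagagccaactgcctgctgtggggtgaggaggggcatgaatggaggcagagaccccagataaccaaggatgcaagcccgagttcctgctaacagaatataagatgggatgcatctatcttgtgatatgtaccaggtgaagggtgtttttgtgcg
Ccng1: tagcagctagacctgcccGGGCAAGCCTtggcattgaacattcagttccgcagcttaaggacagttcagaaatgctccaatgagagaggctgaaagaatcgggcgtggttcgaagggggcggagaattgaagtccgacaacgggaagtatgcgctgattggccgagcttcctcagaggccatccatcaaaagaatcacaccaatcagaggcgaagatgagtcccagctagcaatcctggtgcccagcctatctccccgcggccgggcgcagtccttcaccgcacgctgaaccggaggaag
The half-site was searched by its consensus, which reads alike on both strands, and 2671 of 33469 promoters (7.98%) held it. That share counts all promoters, while each gene called at -8 was taken with the first promoter listed for it. Of the 36 named genes called at -8, 34 had a promoter in the table and 3 of these (8.82%) held a match, those of Ccng1, Cdkn1a and Gpr107. Gpr107 fell at -8 (-1.03), unlike the other genes with a match, and the riser Mdm2 was not among them. A match describes these letters and is not a measured site.

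In the later rats, which are other animals, the early calls stood closer to 0. They were chosen by their p at -8, which favours large values there, so part of this drop follows from the choice. Those higher at -8 had a median difference of 1.132 there, 0.323 at 5j, 0.119 at 1m, 0.011 at 3m, -0.001 at 9m and -0.159 at 12m. Those lower at -8 had -0.681 there, then -0.183, -0.138, -0.154, -0.037 and 0.052. Of the 40 followed, 35 (87.5%) kept their sign at 5j, 31 (77.5%) at 1m, 31 (77.5%) at 3m, 23 (57.5%) at 9m and 14 (35%) at 12m. Over all probe sets the signs at -8 and later were alike for 67.7%, 53.8%, 60.3%, 48.5% and 40.5%. The median difference over all probe sets was -0.069 at -8, then -0.066, -0.005, -0.027, 0.013 and 0.029. After quantile normalization it was -0.001 at -8 and at 5j. Most differences were small, so a shift of this median can alter many signs together. Its part in these shares, and in those of the followed probe sets, was not tested.

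Of the followed probe sets 1 was called at 5j, the one assigned to several genes, and 10 of 40 had an unadjusted p below 0.05 there in their early direction and 0 in the opposite one, beside 8.35% of all probe sets in either direction. At 1m 5 had one in their early direction and 1 in the opposite one (4.31% of all). The 3m counts were 1 and 0 (5.99%). For 9m and 12m alike, 0 had one in their early direction and 3 in the opposite one (3.47% and 2.28% of all). In rev rats 20 of 41 (48.8%) kept their sign, beside 51.8% of all probe sets. In DEN-Clo against Clo rats 39 could be followed. Of these 20 (51.3%) kept their sign at 5j, 13 (33.3%) at 1m, 13 (33.3%) at 3m, 22 (56.4%) at 9m and 9 (23.1%) at 12m. Over all probe sets the shares there were 46.1%, 31%, 38.5%, 63.7% and 47.3%. The median difference over all probe sets there was 0.007, 0.088, 0.053, -0.060 and 0.004. Pooled over these times, 12 of 14 higher at -8 and 2 of 25 lower at -8 kept their sign in the Clo arms. The pooled median over all probe sets was 0.020 there, and 38.1% of all probe sets had the sign of -8. The part of these shifts in the shares was not tested.

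**Figure D5:**
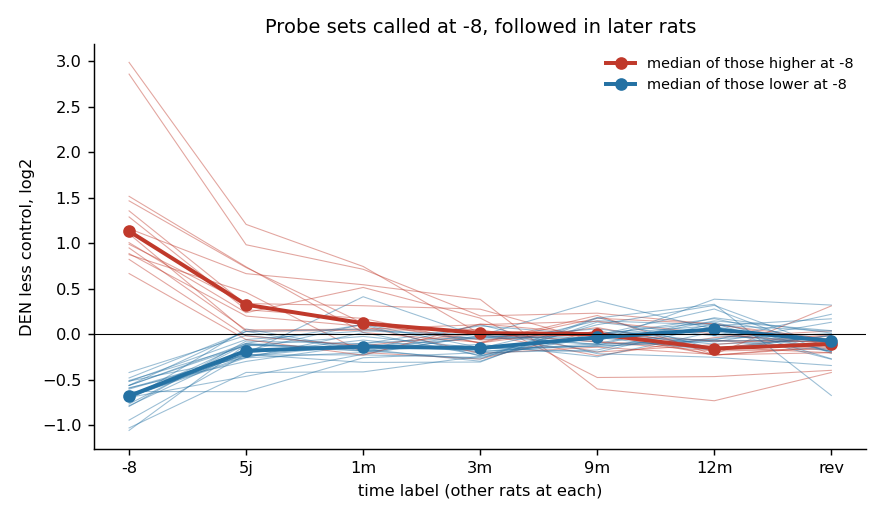
Difference between DEN and control rats (log2) at each time for the 41 probe sets called at -8, and so chosen by their p there. Thin lines are probe sets, and thick lines the medians of those higher and those lower at -8. Medians of both sets lie within 0.16 of 0 from 9m on.

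The values by time differed from gene to gene. Nhej1 was at 0.73 at 5j and between -0.23 and 0.12 afterwards. Ccng1 was at 0.27 at 5j, 0.17 at 1m, -0.10 at 3m, 0.07 at 9m and -0.16 at 12m. At -8 its DEN signals were 387, 467, 505, 576 and 639 against 144, 165, 210, 221 and 239, while at 12m they were 307, 316, 338, 346 and 369 against 311, 332, 390, 428 and 437. At 12m the arms overlapped, with every control above those of -8 and every DEN rat below those of -8.

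Aldh1a1 was at 0.98 at 5j and 0.71 at 1m, then at 0.20, 0.23 and 0.11. Its signals at -8 were 2000, 2190, 2420, 2960 and 3350 under DEN and 168, 173, 294, 551 and 751 in controls. Ephx1 was at 0.34, 0.31 and 0.27 up to 3m and at -0.08 and -0.15 afterwards, and Mgmt at 0.32 at 5j and between -0.10 and 0.17 later. Dpyd was at -0.63 at 5j, where DEN and control rats did not overlap, and at -0.26, -0.20, -0.18 and 0.12 afterwards.

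The number of calls at -8 changed with single rats, being 102 without DEN rat 4050 and 11 without DEN rat 4051. It was 20 without DEN rat 4048 or 4049 or control 4003, and 19, 13 and 22 without controls 4002, 4004 and 4005.

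Rats outside the pooled model bear on the same question. In rev rats 0 of 11800 probe sets (0%) were called in limma, with 513 (4.35%) at an unadjusted p below 0.05. In DEN-Clo against Clo rats pooled over the 5 times 0 of 11669 (0%) were called, with 1124 (9.63%) at an unadjusted p below 0.05, the smallest adjusted p being 0.09364. Of the 1124, 673 were higher and 451 lower, and the median over all probe sets was 0.020. The median distance from the estimate to either end of the 95% interval was 0.159 in that comparison, close to the 0.150 of DEN against control.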

How the data were processed

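The deposited values are linear signal intensities, 1 per probe set and array, made by the authors with MAS5 (no version), per the submitters' processing notes. How arrays were hybridized and scanned is not given in the sources used here. Of 15922 probe sets, 12783 were assigned to 1 gene, 312 to several and 2827 to none, and only the first were named. Each array was scaled to a median of 99.35, the median of the medians of all arrays, 25 was added and log2 taken. Probe sets were tested if 3 or more arrays had them over that array's 40th percentile, using limma 3.58.1 in R 4.3.3 (lmFit, then eBayes with trend), 2-sided, with time as a block and DEN as a term. The effect at each time, its change among times, and late less early times came from the same 50 arrays. Rats at -8 and rev rats were contrasted with their own controls in a fit that also held these 50 arrays, which share the spread, and DEN-Clo against Clo rats were fitted apart.

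Named genes were the called ones, a panel of liver and DNA damage genes, the list members with the smallest p, the 12 genes next in p and the genes called at -8. The 2 genes with the widest intervals and the 2 clock genes of the Clo arms were named after their values were seen. The comparison, the lists and the panel were chosen with earlier results of these data known. Scripts were tested on simulated data. Other offsets, scalings, filters, weights, a B term, B arrays alone, each time and each rat left out were tried. Sections tagged TU or PERI were not used. Rat numbers differ between all animals, so the spread is between animals.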

Additional observations from a re-analysis of the deposited data

Results flagged for a closer look

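The DEN effect at the late times differed from that at the early times for Cdkn1a 1387391_at (-1.27) and for the probe set 1370583_s_at, assigned to several genes (-1.11), each by a limma test of the difference itself. The latter lost its call in at least 40 of 50 fits without 1 rat.

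Single rats stood apart from the other 4 of their group in 21 of 330 checks, each of 1 of 33 probe sets in 1 group. Chance gives about 1 in 20 checks, and these are not independent because the probe sets share the same rats. For Cdkn1a 1387391_at, DEN rat 4077 at 12m had a signal of 180 (others 351 to 455) and DEN rat 4062 at 1m had 175 (329 to 374). Rat 4077 was also low in Nhej1, at 54.4 (111 to 131), and rat 4062 in Scarb1, at 527 (588 to 611). Control rat 4008 at 5j was low in Gstp1, at 155 (256 to 286), and in Ephx1, at 1500 (1960 to 2170). Control rat 4023 at 9m had 35.3 for Fam76a (50.1 to 54.8) and 329 for Ccng1 (266 to 280). DEN rat 4071 at 9m was high in Cyp2e1, at 15600 (10800 to 11400), and in Alb, at 24600 (16500 to 17800).

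Alb was also high in DEN rat 4059 at 1m, at 38500 (15600 to 19700), the rat with the lowest median correlation with its group (0.948). Mink1 was 650 in control rat 4020 at 3m (456 to 502) and 338 in DEN rat 4075 at 12m (433 to 464). Thra was 74.1 in control rat 4029 at 12m (124 to 143) and 55.8 in DEN rat 4053 at 5j (105 to 121). Among DEN rats at 3m, Clpx was 582 in rat 4065 (978 to 1120), Strbp 371 in rat 4066 (166 to 203) and Acot12 863 in rat 4063 (1380 to 1480). Khsrp was 532 in DEN rat 4074 at 12m (278 to 315), Col1a1 122 in DEN rat 4072 at 9m (97.1 to 104) and Dpyd 1290 in control rat 4015 at 1m (2080 to 2510).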

How the results depend on the processing

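The pooled Cct6a difference was lower under DEN in every setting run, but its call was lost with array weights (-0.673), in B arrays alone (-0.862) or the others alone (-0.927), and without 5j (-0.753), 1m (-0.890) or 3m (-0.740). The pooled count was 0 in each of these, 2 with all untagged sections, and 1 in each fit without 1 rat. The late less early count was 1 with an offset of 99, without a filter, with the B term and with all untagged sections, 5 after quantile normalization and 0 without scaling, where Cdkn1a stood at -1.461. It ran from 1 to 2 without single rats, being 1 in 40 of 50 such fits. At 5j the count was 0 without scaling, 2 without a filter, 2 with array weights and 1 to 5 without single rats. At 3m it was 2 after quantile normalization, with a filter at the 70th percentile and with the B term, 1 with all untagged sections and 0 to 2 without single rats. At 1m it was 1 with array weights. The test among times called 2 after quantile normalization and 0 to 1 without single rats, 1 without DEN rat 4062 or 4071. At -8 the count was 4 without scaling (4 higher, 0 lower), 21 without a filter and 11 to 102 without single rats.

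In the Clo arms the pooled count was 1 without scaling, 2 after quantile normalization and 0 to 1 without single rats. Their late less early count was 3 without scaling (0 higher, 3 lower), 3 without a filter and 0 to 13 without single rats. Cdkn1a there was -1.356 without scaling and -0.989 after quantile normalization, neither called, and -1.217 to -1.027 without single rats. The cause of these changes was not tested. Without scaling the median over all probe sets moved to -0.315 at 9m, -0.259 at -8, -0.146 for late less early, and 0.311 (pooled) and -0.317 (late less early) in the Clo arms. Beside these Cct6a and Cdkn1a 1387391_at values, of 2282 values of other gene results over the settings, 98 changed sign, none past the threshold, 2 were newly called (Hsd17b2, above, and Cdkn1a 1388674_at after quantile normalization, -0.969) and 1 was no longer called (Cd14 at 5j without scaling, -1.221). No called value changed its sign. No paired analysis was possible because rat numbers are unique to each animal. Dim probe sets, such as Cdk1, are limited by signal over background.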
